A study of Mus musculus with 2 samples.

Results

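The genes described here are 38 genes of fibroblasts and of the perichondrium, the sheath of connective tissue around growing cartilage, and were followed in cells sorted from mouse embryos. They were taken from a list of connective tissue markers, secreted and matrix genes, adhesion genes and mesenchymal regulators, and a probe set counted as a member when its annotation named that gene alone. Of the 38 genes, 36 had such a probe set on the array, 83 probe sets in all, and 35 genes were measured, out of 11789 measured genes among 18193 with a probe set of their own. Ly6a and Efemp2 were not analysed here, and Clec3b (tetranectin) was below the measuring limit on both arrays, at signals of 14.1 in Venus-positive cells, against 21.8 in Venus-negative cells. The cells came from Col2a1-Venus-Tg embryos, in which Venus, a variant of green fluorescent protein, marks chondrocytes, the cells of cartilage. Both groups, Venus-positive cells and Venus-negative cells, carry this transgene on the C57Bl/6 background. They were parted by fluorescence-activated sorting, and each was measured once, on 1 Affymetrix array. The embryonic stage, the number of embryos and the stretch of Col2a1 that drives Venus are not stated in the labels. The Venus-negative cells are the other cells that were sorted from the embryos and are a mixture, so they are not a preparation of fibroblasts.

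Fibroblasts build the loose and dense connective tissue of the embryo, and the perichondrium supplies new chondrocytes and signals to the cartilage it encloses. Both arise from mesenchyme, as chondrocytes of the limb and axis do, so these tissues share many matrix and regulatory genes. Postn, Dpt and Pdgfra are widely used to mark fibroblasts, while Osr1, Tcf21, the Ebf genes and the Zeb genes encode transcription factors of mesenchyme. Members such as Ncam1, Cdh2, Eya1, Eya2, Tfpi and Zeb2 are also known from muscle, nerve, endothelial or blood cells.

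With 1 array a group there was no replicate error and no test between the groups, and every difference below describes these 2 arrays. Signals are MAS5 intensities on a linear scale, and folds compare the probe set that had the highest mean log2 signal of its gene. A gene was measured if it reached 22.5, the median of all signals, on at least 1 array. Lower signals were raised to this floor before a ratio was taken, so that a fold with 1 side below it is written "at least". The Venus-positive array was dimmer, with a median log2 ratio of -0.33 over all measured genes, and ratios relative to this median are called relative. The sort separated cartilage genes: all 15 genes of a cartilage list were at least 4-fold higher in Venus-positive cells. Among them Sox9, the cartilage transcription factor, was at 1601 in Venus-positive cells, against 338 in Venus-negative cells. Col2a1, whose reporter defined the sort, was at 8443 in Venus-positive cells, against 606 in Venus-negative cells.

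The connective tissue genes were lower as a group in Venus-positive cells, with a wide spread among them. The members were chosen with earlier results of these data known, so the shares below describe this list and test nothing. Of the 35 measured, 19 were at least 2-fold lower (54.3%, against 11.6% of all measured genes), 2 were at least 2-fold higher (5.71%, against 2.79%) and 14 were counted as neither, Spon2 among them from a bound only. At least 4-fold lower were 8 members (22.9%, against 2.24%). Relative to the median gene, 16 were at least 2-fold lower (45.7%, against 6.45%) and 3 at least 2-fold higher (8.57%, against 5.06%). The median log2 ratio of the 35 was -1.07, against -0.33 for all measured genes. Single members ran from -4.30 for Chodl to 2.66 for Pcolce2 on the log2 scale. In material from sorted mixtures, fewer cells of a type and less RNA per cell cannot be told apart.

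**Figure D1:**
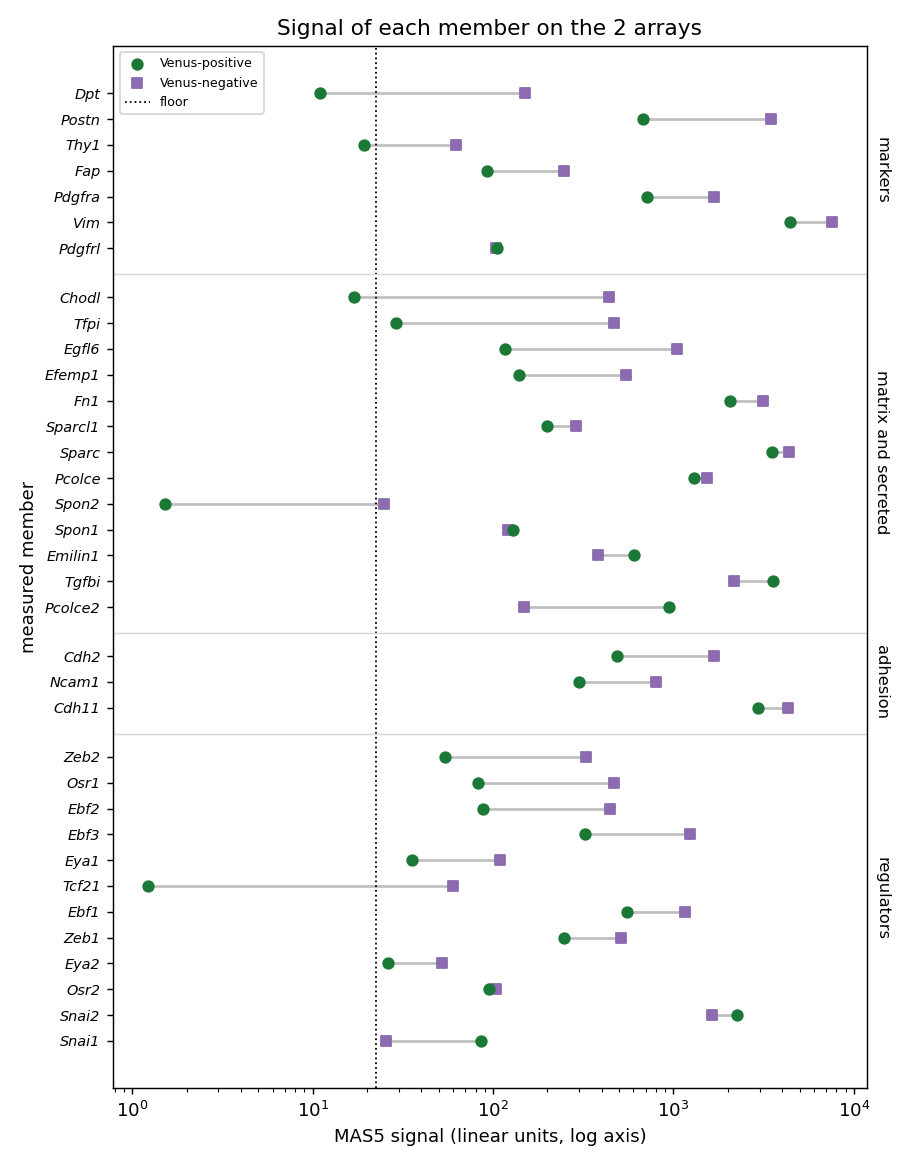
MAS5 signal (log axis) of each of the 35 measured members in Venus-positive cells (circles) and Venus-negative cells (squares), 1 array each, grouped by role and ordered by ratio, with the floor of 22.5 as a dotted line. Most circles lie left of their squares, and Pcolce2, Snai1, Tgfbi, Emilin1 and Snai2 are the clearest exceptions.

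The sequences just before the gene starts are shown for 5 members: Chodl, Tfpi and Dpt, which were among the lowest in Venus-positive cells, and Pcolce2 and Snai1, which were the highest. They are the 250 bases before an annotated start, from RefSeq on build GRCm38.p6, 5′ to 3′ on the strand of the gene, and for Tfpi they belong to the second of its listed starts. Capitals mark the E-box CAGGTG, which Snail and Zeb proteins are known to bind, or CACCTG, the same box on the other strand, and ATTGTT, the other strand of the SOX core AACAAT. Chodl lies at chr16:78930698-78930947 (+), Tfpi at chr2:84474175-84474424 (-), Dpt at chr1:164796413-164796662 (+), Pcolce2 at chr9:95637378-95637627 (+) and Snai1 at chr2:167537945-167538194 (+).
Chodl: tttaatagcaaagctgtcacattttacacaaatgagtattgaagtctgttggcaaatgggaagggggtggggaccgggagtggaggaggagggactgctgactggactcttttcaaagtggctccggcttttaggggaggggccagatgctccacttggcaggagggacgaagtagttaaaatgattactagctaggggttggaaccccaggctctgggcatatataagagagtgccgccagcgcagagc
Tfpi: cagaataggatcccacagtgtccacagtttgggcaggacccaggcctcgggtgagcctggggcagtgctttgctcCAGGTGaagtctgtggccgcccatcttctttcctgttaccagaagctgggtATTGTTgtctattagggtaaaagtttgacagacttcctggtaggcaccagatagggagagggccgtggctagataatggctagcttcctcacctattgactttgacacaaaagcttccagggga
Dpt: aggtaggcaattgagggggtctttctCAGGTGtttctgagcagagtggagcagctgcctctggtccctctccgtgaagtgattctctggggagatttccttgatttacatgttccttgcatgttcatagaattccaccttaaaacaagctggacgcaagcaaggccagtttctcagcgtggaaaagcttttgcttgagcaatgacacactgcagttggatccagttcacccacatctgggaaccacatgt
Pcolce2: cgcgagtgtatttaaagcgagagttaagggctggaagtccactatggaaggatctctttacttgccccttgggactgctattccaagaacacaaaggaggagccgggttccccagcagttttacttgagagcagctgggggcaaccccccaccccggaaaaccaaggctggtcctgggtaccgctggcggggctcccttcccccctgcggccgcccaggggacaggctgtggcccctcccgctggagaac
Snai1: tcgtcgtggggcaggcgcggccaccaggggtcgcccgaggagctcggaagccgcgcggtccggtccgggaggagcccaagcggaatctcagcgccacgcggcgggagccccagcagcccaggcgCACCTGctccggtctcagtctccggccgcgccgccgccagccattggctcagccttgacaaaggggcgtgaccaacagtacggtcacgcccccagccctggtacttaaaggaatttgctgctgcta

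The E-box stood 224 bases before the start in Dpt, 175 in Tfpi and 126 in Snai1, and was not in the windows printed for Chodl and Pcolce2. The windows of Egfl6, whose ratio was lower than that of Dpt, and of the first Tfpi start are not printed. Neither held a motif named here, so the printed windows are not a fair sample of the lowest members. The promoter table held 24 windows for 18 of the measured members. Of these, 4 windows held the E-box on either strand (16.7%, in Dpt, Pcolce, Snai1 and Tfpi), against 17.2% of the 32851 windows of all genes. The SOX core AACAAT or its other strand was in 2 of the 24 windows, of Postn and Tfpi (8.33%, against 9.42% of all windows). TATAAA, the letters of a TATA box, read on the strand of the gene only, was in 2 windows, of Postn and Vim (8.33%, against 7.59%). The EBF motif TCCCNNGGGA, which reads the same on both strands, was in none of the 24 and in 0.779% of all windows. None of these motifs overlapped in a window printed here. The E-box thus occurred in windows of members that were lower (Dpt, Tfpi), higher (Snai1) and nearly level (Pcolce) in Venus-positive cells. A match of letters is a description and shows no binding.

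Among the 9 genes used as markers of fibroblasts and mesenchyme, 7 were measured. Of these, 5 were 2-fold or more lower in the Venus-positive fraction (71.4%, against 11.6% of all measured genes) and none was at least 2-fold higher. Postn, which encodes periostin, a secreted matrix protein of the periosteum and perichondrium, was at a signal of 677 in Venus-positive cells, against 3492 in Venus-negative cells. It was 5.16-fold lower and still well above the floor in the Venus-positive fraction. Dpt, the gene of dermatopontin, which binds decorin and collagen fibrils, was at 11.0 in Venus-positive cells, against 149.9 in Venus-negative cells, at least 6.66-fold lower. Dpt was thus below the floor in the Venus-positive fraction, as was Thy1, the gene of a surface glycoprotein of fibroblasts, thymocytes and neurons. Thy1 was at 19.2 in Venus-positive cells, against 62.2 in Venus-negative cells, at least 2.76-fold lower. Fap, which encodes a surface serine protease of activated fibroblasts, was at 92.1 in Venus-positive cells, against 247 in Venus-negative cells, 2.68-fold lower.

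Pdgfra, the receptor for platelet-derived growth factor A, was at 715 in Venus-positive cells, against 1679 in Venus-negative cells, 2.35-fold lower. Its other 2 probe sets gave log2 ratios of -0.98 and -0.41, so its place past 2-fold rests on the brightest. The related gene Pdgfrl, for a receptor-like protein without a kinase, was level at 106 in Venus-positive cells, against 103 in Venus-negative cells. Vim (vimentin), the intermediate filament of mesenchymal cells at large, was at 4445 in Venus-positive cells, against 7597 in Venus-negative cells. The 3 probe sets of Vim gave log2 ratios from -0.77 to -0.58, all short of 2-fold. The ratios of the markers thus ran from Dpt, the farthest below level, to Pdgfrl, which was level.

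The secreted and matrix genes were the most divided group. Of 13 measured, 4 were 2-fold or more lower in the Venus-positive fraction (30.8%, against 11.6% of all measured genes) and 1 was at least 2-fold higher (7.69%, against 2.79%). The other 8 were neither, and the median relative log2 ratio of the 13 was 0.04. The 4 lower genes included the members farthest from level. Chodl, which encodes chondrolectin, a membrane protein with a C-type lectin domain, was at 16.9 in Venus-positive cells, against 442 in Venus-negative cells, at least 19.6-fold lower, and 2 of the 11789 measured genes had a lower ratio. Despite its name, then, the gene was below the floor in the fraction in which cartilage genes were high. Chodl has 1 probe set.

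Tfpi, the gene of the inhibitor of tissue factor that restrains blood clotting, was at 29.0 in Venus-positive cells, against 467 in Venus-negative cells, 16.1-fold lower, and 4 measured genes had a lower ratio. Its other 3 measured probe sets gave log2 ratios of -2.91, -2.05 and -0.87, of which the last 2 are bounds set by the floor. Egfl6, which encodes a secreted matrix protein with EGF repeats, was at 116 in Venus-positive cells, against 1052 in Venus-negative cells, 9.04-fold lower. Efemp1, the gene of fibulin 3, an extracellular glycoprotein related to the elastic fibre fibulins, was at 139.5 in Venus-positive cells, against 545 in Venus-negative cells, 3.90-fold lower. On the probe sets that stand for them, Tfpi, Egfl6 and Efemp1 stayed above the floor in Venus-positive cells, Tfpi only narrowly.

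The procollagen C-proteinase enhancers, secreted proteins that speed removal of the C-terminal propeptide of fibrillar procollagens, parted from each other. Pcolce2 was at 939.7 in Venus-positive cells, against 149 in Venus-negative cells, 6.33-fold higher, and 57 measured genes had a higher ratio. Pcolce was at 1301 in Venus-positive cells, against 1536 in Venus-negative cells, 1.18-fold lower, and its other probe set lay at a log2 ratio of -0.26 against -0.24. Relative to the median gene the ratio of Pcolce was 0.09, so its side depends on the scale, while Pcolce2 was higher on either. Tgfbi, which encodes a secreted adhesion protein induced by TGF-beta, was at 3559.7 in Venus-positive cells, against 2168 in Venus-negative cells, 1.64-fold higher. Its 4 probe sets gave log2 ratios from 0.61 to 1.11, on both sides of 2-fold and all above 0. Emilin1, a glycoprotein gene of elastic fibres, was at 603 in Venus-positive cells, against 384 in Venus-negative cells, 1.57-fold higher, with a second probe set at a log2 ratio of 0.11.

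Sparc (osteonectin), which binds collagen and calcium, was at 3540.4 in Venus-positive cells, against 4343 in Venus-negative cells, and its relative log2 ratio was 0.04. Its homologue Sparcl1 was at 199 in Venus-positive cells, against 289.8 in Venus-negative cells, 1.45-fold lower. Fn1 (fibronectin) was at 2051 in Venus-positive cells, against 3148 in Venus-negative cells, 1.53-fold lower, and its dimmer probe set gave a log2 ratio of -0.10. Of the F-spondin family genes, Spon1 was near level, at 128 in Venus-positive cells, against 120.4 in Venus-negative cells. Its second measured probe set lay on the other side of 0 at -0.16, a bound set by the floor on a dim probe set. Spon2 was at 1.52 in Venus-positive cells, against 24.8 in Venus-negative cells, where only the Venus-negative signal reached the floor, and narrowly. Its fold of at least 1.10 is thus a bound and does not show how much lower it was.

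All 3 adhesion genes lay below the median gene. Cdh2 (N-cadherin), which holds together condensing mesenchyme, muscle and neural cells, was at 487 in Venus-positive cells, against 1678 in Venus-negative cells, 3.45-fold lower, and its other probe set lay at a log2 ratio of -1.86 against -1.78. Ncam1, the neural cell adhesion molecule, also of condensing mesenchyme and muscle, was at 298 in Venus-positive cells, against 802 in Venus-negative cells, 2.69-fold lower. The 4 measured probe sets of Ncam1 gave log2 ratios from -1.65 to -1.41. Cdh11, the cadherin of mesenchyme and osteoblasts, was at 2939 in Venus-positive cells, against 4310.4 in Venus-negative cells, 1.47-fold lower, and its 2 probe sets differed by 0.03 on the log2 scale. The ratios of Cdh2 and Ncam1 were past 2-fold on the relative scale too, and that of Cdh11 was -0.22 on it.

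All 12 regulators were measured, of which 8 were 2-fold or more lower in the Venus-positive fraction (66.7%, against 11.6% of all measured genes). At least 2-fold higher was 1 (8.33%, against 2.79%), and 3 were neither. The Ebf genes encode helix-loop-helix factors of mesenchymal progenitors, fat cells and B cells, and all 3 were lower. Ebf2 was at 87.7 in Venus-positive cells, against 445 in Venus-negative cells, 5.08-fold lower. Ebf3 was at 323 in Venus-positive cells, against 1239 in Venus-negative cells, 3.83-fold lower. All probe sets of Ebf2 and Ebf3 were past 2-fold, with log2 ratios from -2.37 to -1.78 and from -1.94 to -1.72. Ebf1 was at 554 in Venus-positive cells, against 1158 in Venus-negative cells, 2.09-fold lower, but its other 3 measured probe sets gave ratios from -0.84 to -0.48 on the log2 scale, short of 2-fold. On the relative scale Ebf1 was at -0.73.

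The odd-skipped genes, zinc-finger factors of limb connective tissue and joints, differed from each other in the comparison. Osr1 was at 82.9 in Venus-positive cells, against 466 in Venus-negative cells, 5.62-fold lower, whereas Osr2 was at 95.0 in Venus-positive cells, against 104 in Venus-negative cells. The log2 ratio of Osr1 was -2.49 and that of Osr2 -0.14, with a relative value of 0.20 for Osr2. Tcf21, a helix-loop-helix factor of organ fibroblasts, was at 1.21 in Venus-positive cells, against 59.8 in Venus-negative cells, at least 2.66-fold lower. The Eya genes encode transcription cofactors with phosphatase activity that act with homeobox partners in muscle and sensory organs. Eya1 was at 35.7 in Venus-positive cells, against 109 in Venus-negative cells, 3.06-fold lower, and a dimmer probe set gave a log2 ratio of -0.50 at the floor. Eya2 was at 26.3 in Venus-positive cells, against 51.9 in Venus-negative cells, 1.97-fold lower and so just short of 2-fold, where Zeb1 (2.07-fold) and Ebf1 were just past it.

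The repressors that bind the E-box, known from the change of epithelia to mesenchyme, lay on opposite sides by family. Zeb2 was at 54.2 in Venus-positive cells, against 327 in Venus-negative cells, 6.04-fold lower, and its 5 measured probe sets gave log2 ratios from -3.03 to -0.66, the last of them on a dim probe set that was below the floor in Venus-positive cells. Zeb1 was at 248 in Venus-positive cells, against 513 in Venus-negative cells. Its other measured probe sets gave -0.57 and -0.43 on the log2 scale, the first of them a bound set by the floor. Snai1 was at 85.5 in Venus-positive cells, against 25.5 in Venus-negative cells, 3.35-fold higher, but the Venus-negative signal was close to the floor and the gene has 1 probe set. Snai2 (Slug) was at 2254 in Venus-positive cells, against 1642 in Venus-negative cells, 1.37-fold higher, with log2 ratios of 0.46 and 0.91 on its 2 probe sets. Relative to the median gene, Snai1 and Snai2 were at 2.07 and 0.79, and Zeb1 and Zeb2 at -0.71 and -2.26.

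**Figure D2:**
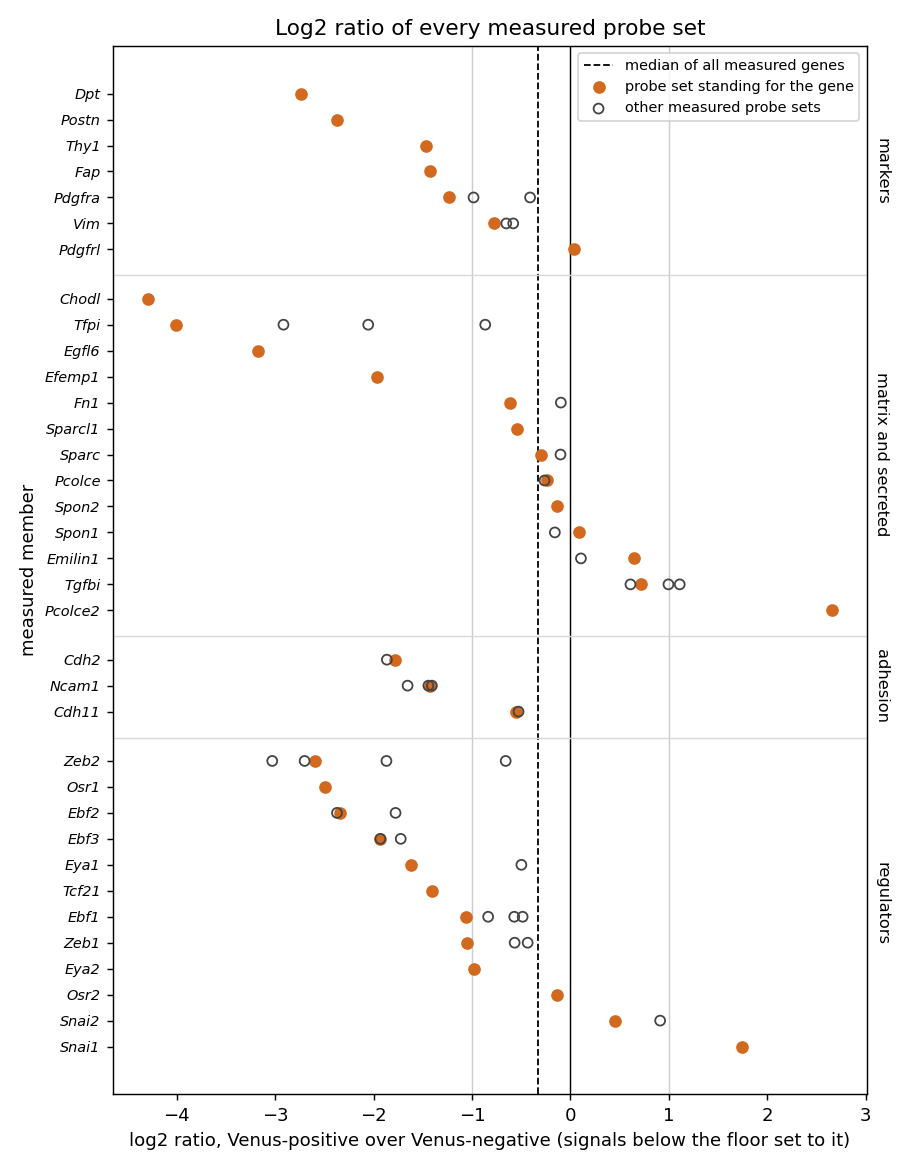
Log2 ratio (Venus-positive over Venus-negative cells) for the 70 measured probe sets of the 35 measured members, with filled points for the probe set that stands for the gene and open points for the others. The dashed line is the median of all measured genes at -0.33, and the grey lines mark 2-fold either way. Tfpi and Zeb2 spread most, and of their probe sets the dim ones lie nearest to 0.

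Agreement between probe sets bears on how far a single value can be read. Of the 35 members, 19 had several measured probe sets and 16 had 1. The span of log2 ratios within a member had a median of 0.50 and reached 3.15 in Tfpi, where the end nearest to 0 is a bound. For 1 of the 19, Spon1, the probe sets lay on both sides of 0, though the ratio below 0 is a bound on a dim probe set. Of the 10 genes past 2-fold lower that had several, all probe sets were past 2-fold in 4, Ebf2, Ebf3, Cdh2 and Ncam1. In Tfpi, Zeb2 and Eya1 the measured probe set short of 2-fold was below the floor in Venus-positive cells. Its ratio is thus a bound and does not show that the probe sets disagree. These probe sets share the same 2 RNA samples and do not stand in for replicates.

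Other genes of connective tissue, none of them members, were lower as a group in Venus-positive cells too. This list was also chosen with earlier results of these data known, so it is no independent check of the members. Of 62 listed, 56 were measured, of which 25 were 2-fold or more lower in the Venus-positive fraction (44.6%, against 11.6% of all measured genes). At least 2-fold higher were 3 (5.36%, against 2.79%) and 28 were neither, with a median log2 ratio of -0.81 for the 56. The lowest was Dcn (decorin, a collagen-binding proteoglycan), at 156 in Venus-positive cells, against 2483 in Venus-negative cells, 15.9-fold lower. Aldh1a2, which makes retinoic acid, was 13.0-fold lower, at 49.0 in Venus-positive cells, against 639 in Venus-negative cells. Cd34, a sialomucin of fibroblasts, endothelium and blood progenitors, was 6.70-fold lower, the homeobox gene Meox2 was 5.20-fold, the growth factor gene Igf1 4.99-fold and the chemokine gene Cxcl12 4.71-fold lower. On the other side, Cthrc1, a secreted protein gene of matrix-making cells, was at 4779 in Venus-positive cells, against 933 in Venus-negative cells, 5.12-fold higher. Tnc (tenascin C, an adhesion-modulating matrix protein) was 2.88-fold and the collagen gene Col16a1 2.06-fold higher, while Timp1, Fbln2 and Sfrp1 were at 1.98-, 1.64- and 1.49-fold. The members and this list thus both held genes at more than 4-fold in either direction.

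**Figure D3:**
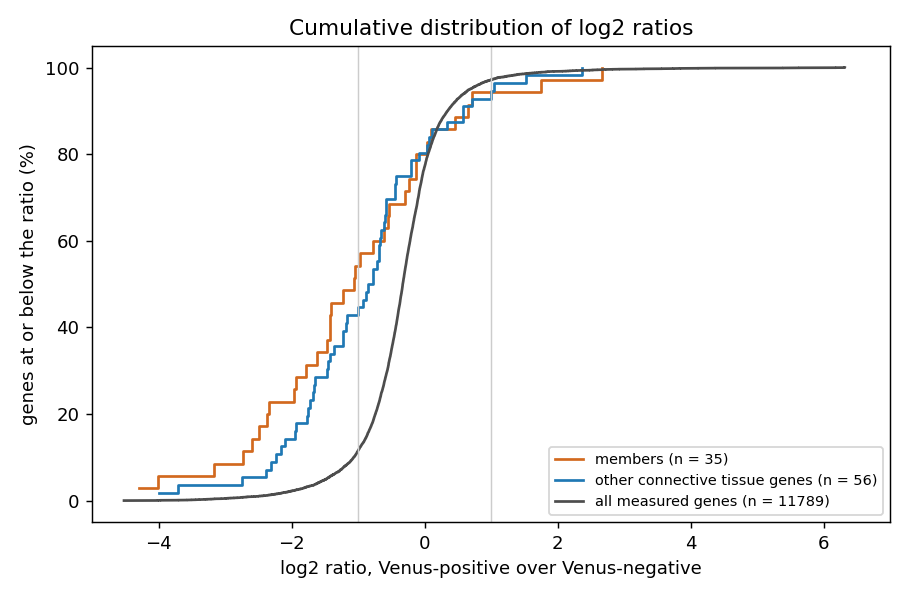
Share of genes (%) at or below each log2 ratio (Venus-positive over Venus-negative cells), for the 35 measured members, the 56 other connective tissue genes and all 11789 measured genes. At 2-fold lower (left grey line) the curves stand at 54.3%, 44.6% and 11.6%.

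Markers of other cell types were also lower in Venus-positive cells, and several members are expressed by those cells. The share of all measured genes at least 2-fold lower was 11.6%, and 1211 of the 11789 were below the floor in Venus-positive cells. All 12 leukocyte markers were at least 2-fold lower, with summed signals of 285 in Venus-positive cells, against 2629 in Venus-negative cells, and 8 of the 12 were below the floor in Venus-positive cells. All 12 measured skeletal muscle markers were at least 2-fold lower, with summed signals of 495 in Venus-positive cells, against 4910.3 in Venus-negative cells, and 6 were below the floor in Venus-positive cells. Of 10 endothelial markers 9 were lower (264 summed in Venus-positive cells, against 1101 in Venus-negative cells, 4 below the floor in Venus-positive cells), and of 9 neuronal markers 5 (483 summed in Venus-positive cells, against 1206 in Venus-negative cells, 3 below the floor in Venus-positive cells). Of 10 smooth muscle and pericyte markers 6 were lower and 1, Cspg4, was higher, with 5 below the floor in Venus-positive cells. Of 10 epithelial markers 8 were lower, and of 6 measured erythroid markers 5. The erythroid signals summed to 13566 in Venus-positive cells, against 25016 in Venus-negative cells. Most of this was Hbb-y, the brightest, which was nearly level at 11912 in Venus-positive cells, against 13190 in Venus-negative cells. The table holds no signal at 0.

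Set beside these, the member list had summed signals of 26262 in Venus-positive cells, against 40933 in Venus-negative cells. The sum was thus 1.56-fold larger in Venus-negative cells, against 1.16-fold for all measured genes. Below the floor in Venus-positive cells were 5 of the 35 measured members, against 1211 of the 11789 measured genes. These 5 were Dpt, Thy1, Tcf21, Spon2 and Chodl. The part that leukocytes, muscle, endothelium or nerve cells of the Venus-negative fraction have in the ratios of Zeb2, Ncam1, Cdh2, Eya1, Eya2, Chodl or Tfpi was not tested. The medians of the log2 ratios were -1.07 for the members, -0.81 for the other connective tissue genes, -1.14 for neuronal and -1.65 for smooth muscle and pericyte markers. They were -2.07 for epithelial, -2.11 for endothelial, -2.52 for skeletal muscle, -2.78 for leukocyte and -2.99 for erythroid markers. Ratios with 1 side below the floor are bounds, as for 3 of 9 neuronal and 8 of 12 leukocyte markers. How close the members lay to another list thus cannot be read from these medians alone.

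**Figure D4:**
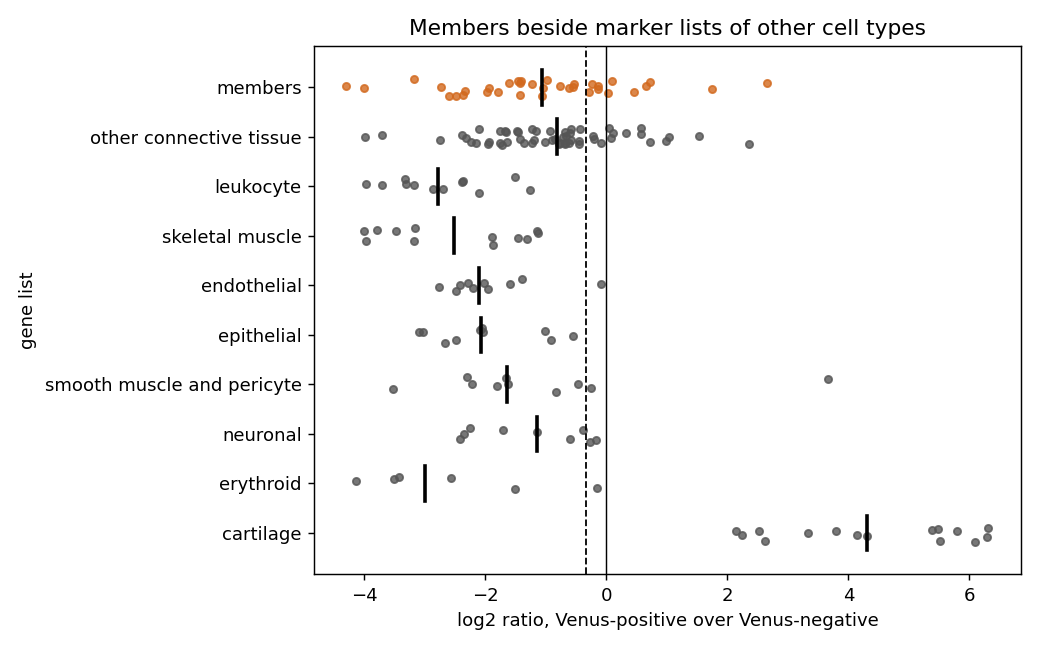
Log2 ratio (Venus-positive over Venus-negative cells) for each measured gene (points, spread vertically for legibility) of the members, the other connective tissue genes and 8 marker lists, with the median of each list as a bar and the median of all measured genes as a dashed line. The members centre at -1.07, and the medians of the lists run from -2.99 for erythroid to 4.31 for cartilage markers.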

How the data were processed

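Venus-positive and Venus-negative cells gave 1 array each, grouped by the cell type in the labels. The deposited values are linear intensities per probe set made by the authors with the MAS5 algorithm, as the submitters' processing notes say. Its version and scaling target, and any detection calls, are unstated in the sources used here, and the number of arrays limits the precision. After removal of 64 control probe sets, 34945 of 45037 had 1 symbol in the platform annotation. Gene identifiers of all 36 members with a probe set matched RefSeq. Signals under the median of both arrays' non-control signals were raised to it (the floor). Ratios were computed with Python 3.11.15 and pandas 2.3.3 on the deposited scale, and the 2-fold and 4-fold sizes are fixed sizes, not tests. Calculations were tested on simulated data. All members are named. Of the other connective tissue genes, the 6 with the largest ratios each way are named. Lists of other cell types enter as counts and sums, with Cspg4 named as the largest ratio of its list and Hbb-y as the brightest erythroid marker. Pdgfrb (pericyte) and Eng (endothelial) are in the connective tissue list too. Members and lists were chosen with earlier results of these data known. Tried besides were ratios centred on their median, quantile-normalized arrays, a floor at the 25th or at the 75th percentile, log2(signal + 16) with no floor, a mean over each gene's probe sets, and omission of the _x_at and _s_at probe sets.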

Additional observations from a re-analysis of the deposited data

How the results depend on the processing

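Across the 7 alternatives the number of members at least 2-fold lower ran from 15 to 20, against 19 on the deposited scale. The median log2 ratio of the members ran from -1.15 to -0.73. The genes measured and the share of them at least 2-fold lower changed as well, so the counts alone do not show stability. The lowest count was 15 of 27 members, against 6.39% of all measured genes, when the 75th percentile served as floor. The 20 were of 36 members, against 16.1%, with the 25th percentile as floor, and of 35, against 10.6%, with no floor. Centring gave 16 of 35, against 6.45%, and quantile normalization 17 of 34, against 6.55%. Postn, Osr1, Efemp1, Ebf2, Ebf3, Fap, Cdh2, Ncam1, Zeb2, Tfpi, Egfl6 and Chodl, 12 of the 19, were past 2-fold lower under all 7. Zeb1 and Ebf1 were within 2-fold with centring, quantile normalization or the mean over probe sets, and Pdgfra with the first and last of these. With the floor at the 75th percentile 27 members were measured, the count of members at least 2-fold higher was 1 (Pcolce2), since Snai1 was no longer measured, and Dpt was left with a bound of -0.39 on the log2 scale, which does not show 2-fold. With centring, Tgfbi passed 2-fold and 5 of the other connective tissue genes were at least 2-fold higher in place of 3. Osr2, Pcolce and Sparc changed sign with centring, Osr2 with quantile normalization and Spon1 with the mean over probe sets, and these 4 were short of 2-fold on the deposited scale. Spon2, whose ratio at the main floor is a bound of -0.14, had a bound of -2.26 when the 25th percentile served as floor, and a value of -1.22 with no floor, so its size and its sign after centring cannot be read at the main floor. No paired analysis was possible because each group has 1 sample and the labels carry no replicate numbers. The log2 ratio of Tfpi, -4.01 on the deposited scale, was -3.43 with no floor and -2.46 with the mean over probe sets. It was a bound of -2.03 with the floor at the 75th percentile. Members near the floor, such as Spon2, Eya2, Snai1, Thy1 and Tfpi, have the least certain ratios, and no error between samples can be given.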
